A study of Homo sapiens with 2 samples.

Results

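The 7SL, 7SK, RNase P, RNase MRP, Y and vault RNAs, 10 structured RNAs in all, were followed in 2 RNA immunoprecipitation (RIP) libraries. The members were chosen by name, as the rows of the deposited count table called RN7SL1, RN7SL2, RN7SL3, RN7SK, RPPH1, RMRP, RNY1, RNY3, VTRNA1-1 and VTRNA1-3. They are 10 of 59690 distinct rows, and all 10 matched a RefSeq gene. RIP pulls down a protein with an antibody and sequences the RNA that comes with it. One library, the MT1-MMP RIP, used an antibody to the MMP14 product, a matrix-degrading protease held in the cell membrane, and the other, the IgG RIP, was a mock with rabbit IgG. Both came from MDA-231 cells, a human breast cancer line of labelled genotype wt, kept for 16 h without serum in the presence of the beta-1 integrin antibody P4G11 (the labels also list E7-s, with no role given). Thus the mock carries the same antibody treatment, and no untreated cells were compared; whether both libraries came from 1 lysate is not stated. MMP1 stands in the sample title of the antibody library where the series' design text has MT1-MMP, and the mock's cell line is tagged MDA-232; in both cases the samples were taken as the design text gives them. Each group is 1 library of 1 cell line, so nothing below has a replicate check, no p-value is given, and intervals cover counting error only.

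These RNAs are made by RNA polymerase III and fold into compact particles with proteins. 7SL is the scaffold of the signal recognition particle, the cytoplasmic machine that brings ribosomes making secreted and membrane proteins to the endoplasmic reticulum. 7SK is a nuclear RNA that holds the elongation kinase P-TEFb in an inactive state. RPPH1 is the catalytic RNA of RNase P, which cuts the leader from tRNA precursors, and RMRP is the related RNA of RNase MRP, which acts on ribosomal RNA precursors in the nucleolus. Y RNAs bind the Ro60 and La proteins, and vault RNAs are part of the vault, a large cytoplasmic ribonucleoprotein.

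Sequence at the 5′ end was at hand for 2 of the RNAs, from RefSeq windows of GRCh38.p14 that belong to neighbouring genes. None of the 10 members has an entry of its own in that table. The 2 sequences are shown as examples of motifs before a gene and inside its transcribed part, not as whole promoters. The sequence before RPPH1 is chr14:20343385-20343531, minus strand, part of the window of PARP2, a gene that starts 224 bases away on the opposite strand. It runs from 120 bases before RPPH1 through the first 27 bases of the RNA, and the capitals mark the octamer ATTTGCAT and a TATAA element. The bases of VTRNA1-1 are chr5:140711276-140711325, plus strand, the first 50 of its 98, and the capitals mark a match to the A box, an element inside the transcribed part.
RPPH1: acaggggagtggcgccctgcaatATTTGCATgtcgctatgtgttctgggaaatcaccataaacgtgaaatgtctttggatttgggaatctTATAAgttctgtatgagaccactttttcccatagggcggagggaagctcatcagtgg
VTRNA1-1: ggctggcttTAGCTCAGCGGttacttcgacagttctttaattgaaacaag
The octamer lies 97 to 90 bases and the TATAA element 30 to 26 bases upstream of RPPH1, and the A box match covers bases 10 to 20 of VTRNA1-1. Searched on both strands, with no overlap between the motifs, ATTTGCAT was found in 1.77% of all 35116 RefSeq windows of 300 bases and TATAA in 20.4%. A match to the A box was found in 3.71% of the first 50 bases of the same genes. These matches describe letters and are not shown to be used in these cells.

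The MT1-MMP RIP held 31636000 counts and the IgG RIP 13003668. Ribosomal RNA rows of a block of 28 consecutive rows on chromosome 21 took 10.2% and 92.6% of them, so the scale chosen sets the direction of many differences. By CPM, counts scaled to a library total of 1000000, 2.43 MT1-MMP counts to 1 IgG count are equal levels. By trimmed mean of M-values (TMM), which places the typical row near 1, 45.9 counts to 1 are equal, and every row lies 4.24 lower on the log2 scale than by CPM. Both are given below, with raw counts. A row was tested if its counts in both libraries summed to 20 or more, and it was called higher in a library where the whole 95% interval of its ratio lay beyond 2-fold. The 5 chosen markers of MDA-231 (VIM, CD44, AXL, CAV1 and KRT18) were all above 0 in both libraries and summed to 32086 and 1502 counts. In the MT1-MMP RIP every marker of the other cell types below was above 0 too, so presence there does not tell them apart. KRT18 had 50 and 72 counts, and the luminal marker ESR1 369 and 3. Luminal breast markers summed to 904 and 31 counts, immune markers to 60 and 1, erythroid markers to 6 and 0, fibroblast markers to 168 and 4, and endothelial markers to 3488 and 26, of which PECAM1 alone gave 3414 and 24; their part in the results was not tested.

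Among the 10 RNAs, the 7SL loci had more raw counts in the smaller IgG RIP, as did VTRNA1-1 with its single count, and no other member did. RN7SL1 (chromosome 14, 49586580 to 49586878, 299 nt) had 7595 counts in the MT1-MMP RIP and 36579 in the IgG RIP. RN7SL2 (chromosome 14, 49862551 to 49862849, 299 nt) had 7333 and 36092. RN7SL3 (chromosome 14, 49853616 to 49853914, 299 nt) had 1181 and 3559. The summed 7SL loci were thus at 509 CPM in the MT1-MMP RIP and 5862 CPM in the IgG RIP, 11.5-fold higher in the latter. The log2 ratio of MT1-MMP to IgG was -3.53 by CPM (95% interval -3.55 to -3.50) and -7.76 by TMM (-7.79 to -7.74). RN7SL1 and RN7SL2 had ranks 5 and 6 of 59662 rows by counts of the IgG RIP outside the ribosomal block, and ranks 676 and 707 in the MT1-MMP RIP. These ranks include rows, described below, that largely repeat 7SL counts. RPS29 stood above both in the IgG RIP (36627 counts), and RP11-596C23.6 tied RN7SL2 there at 36092.

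The 3 loci cannot be taken as 3 independent measurements. RN7SL1 and RN7SL2 had nearly the same counts in each library, and the ratio of RN7SL1 to RN7SL2 was 1.04 in the MT1-MMP RIP and 1.01 in the IgG RIP. The change of that ratio between libraries was 1.02, with an interval (0.987 to 1.06) that includes 1. RN7SL3 was less skewed: its counts relative to RN7SL1 were 0.156 in the MT1-MMP RIP and 0.0973 in the IgG RIP, a 1.60-fold difference (95% interval 1.49 to 1.71). RN7SL1 lies within the span of RPS29, a ribosomal protein gene with 8298 and 36627 counts. Its counts are 91.5% of those of RPS29 in the MT1-MMP RIP and 99.9% in the IgG RIP. The counts of RPS29 beyond those of RN7SL1 were 703 and 48, a ratio of 14.6 to 1 where RN7SL1 had 0.208 to 1. RN7SL2 lies within the RefSeq noncoding gene LOC105378179, which has no row of that name, and the row next to it, RP11-596C23.6, held 7363 and 36092 counts, so these reads entered the table in both rows.

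7SK was the most counted of the 10 RNAs in the MT1-MMP RIP. RN7SK (chromosome 6, 52995620 to 52995951, 332 nt) had 81723 counts there and 6253 in the IgG RIP. Only 6 rows outside the ribosomal block had more MT1-MMP counts (rank 7 of 59662). Its rank in the IgG RIP was 13, below the rows RPS29 and RP11-596C23.6 that largely repeat 7SL counts. It stood at 2583 CPM against 481 CPM, 5.37-fold higher in the MT1-MMP RIP, a log2 ratio of 2.43 (95% interval 2.39 to 2.46). Relative to the typical row this turns around: by TMM the log2 ratio was -1.81 (-1.85 to -1.78), 3.51-fold higher in the IgG RIP. A row named 7SK, next to RN7SK in the table, holds the same 81723 and 6253 counts and was not used as a separate measurement.

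RPPH1 (chromosome 14, 20343071 to 20343411, 341 nt) had 16637 counts in the MT1-MMP RIP and 4100 in the IgG RIP. Its levels were 526 and 315 CPM, a log2 ratio of 0.74 by CPM (0.69 to 0.79), which stayed within 2-fold. By TMM the log2 ratio was -3.50 (-3.55 to -3.45), 11.3-fold higher in the IgG RIP. PARP2, whose promoter region RPPH1 shares, had 167 and 8 counts, 20.9 MT1-MMP counts per IgG count against 4.06 for RPPH1. The RPPH1 row appears in duplicate with equal counts and was counted once.

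RMRP (chromosome 9, 35657750 to 35658019, 270 nt) is listed at 0 in both libraries. So are most rows around it: of 18 protein-coding rows within 200 kb on either side, 13 (72.2%) are listed at 0 in both, against 9.62% of protein-coding rows on chromosome 9 and 7.09% of all. Among the 13 are TPM2, CREB3 and GBA2, genes used by many cell types, and TLN1, which encodes the integrin linker talin, had 6 and 0 counts. No level of RMRP was therefore taken from this table.

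The short members were close to the detection limit. RNY1 (chromosome 7, 148987136 to 148987248, 113 nt) had 47 counts in the MT1-MMP RIP and 18 in the IgG RIP. RNY3 (chromosome 7, 148983755 to 148983856, 102 nt) had 23 and 10. Neither differed by CPM beyond counting error, with log2 ratios of 0.078 (-0.71 to 0.97) for RNY1 and -0.12 (-1.21 to 1.15) for RNY3. By TMM both were higher in the IgG RIP, at -4.16 (-4.95 to -3.26) and -4.36 (-5.45 to -3.08). VTRNA1-3 (chromosome 5, 140726159 to 140726246, 88 nt) had 14 and 1 counts, a raw ratio of 14.0 whose interval of 2.13 to 592 leaves the direction unset by TMM and by CPM alike. VTRNA1-1 (chromosome 5, 140711276 to 140711373) had 0 MT1-MMP counts, which allows up to 3, and 1 IgG count. The 4 members under 200 nt had at most 47 counts in either library, while each longer member other than RMRP had at least 1181. This split describes the members only. Spliceosomal RNAs, whose lengths were not compared, reached 12288 and 446 counts (RNU1-2). Extraction was with an RNeasy column, per the labels, a kind of column that keeps RNA below this length poorly; its part in these counts was not tested.

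**Figure D1:**
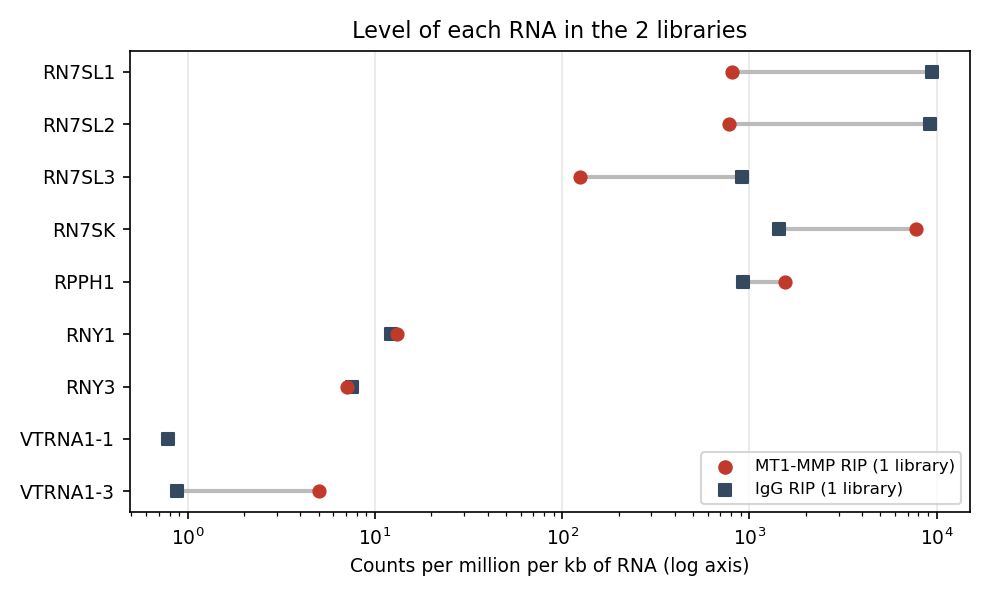
Level of each member in CPM per kb of RNA length, on a log axis, with 1 point per library (red circle, MT1-MMP RIP; dark square, IgG RIP). The 7SL loci lie higher in the IgG RIP and RN7SK and RPPH1 higher in the MT1-MMP RIP on this scale (by TMM all of these are higher in the IgG RIP), VTRNA1-3 rests on 14 and 1 counts, RNY1 and RNY3 nearly coincide, RMRP is listed at 0 in both, and VTRNA1-1 has no MT1-MMP point because it had 0 counts there.

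Per length, the order of levels differed between the libraries. In the MT1-MMP RIP RN7SK led at 7781 CPM per kb (Poisson 95% interval 7728 to 7834), followed by RPPH1 at 1542 (1519 to 1566), RN7SL1 at 803 (785 to 821), RN7SL2 at 775 (758 to 793) and RN7SL3 at 125 (118 to 132). Of these neighbours, RN7SL1 and RN7SL2 had overlapping intervals. In the IgG RIP RN7SL1 led at 9408 CPM per kb (9312 to 9505) with RN7SL2 at 9283 (9187 to 9379), again overlapping. RN7SK followed at 1448 (1413 to 1485), and RPPH1 at 925 (897 to 953) and RN7SL3 at 915 (886 to 946) could not be told apart. RNY1, at 13.1 and 12.3 CPM per kb, and RNY3, at 7.13 and 7.54, had overlapping intervals in both libraries. The plot of levels by member shows this exchange of places between 7SL and 7SK.

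**Figure D2:**
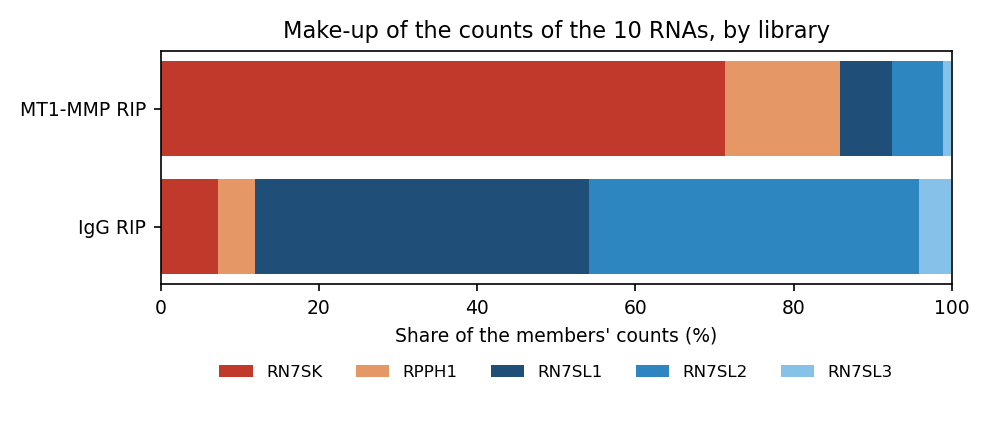
Share of the summed counts of the 10 RNAs held by each, in percent, with 1 bar per library. RN7SK fills 71.3% of the MT1-MMP bar and 7.22% of the IgG bar, and the 7SL loci (blue) fill 14.1% and 88.0%; Y and vault RNAs are too few to be seen.

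Ratios between the RNAs within a library need no scaling. They restate the contrast from the same counts and are not a second test of it. 7SK made up 71.3% of the counts of the 10 RNAs in the MT1-MMP RIP (95% exact interval 71.1 to 71.6) and 7.22% in the IgG RIP (7.05 to 7.39). 7SL made up 14.1% (13.9 to 14.3) and 88.0% (87.8 to 88.2), and RPPH1 14.5% (14.3 to 14.7) and 4.73% (4.59 to 4.88). With 7SL left out of the denominator the order of the RPPH1 shares turned, to 16.9% in the MT1-MMP RIP and 39.5% in the IgG RIP, and 7SK held 83.0% and 60.2%. There were 5.07 counts of 7SK per count of 7SL in the MT1-MMP RIP and 0.0820 in the IgG RIP, a 61.8-fold difference. The reverse ratio, of 7SL to 7SK, was 0.0162 of its IgG value in the MT1-MMP RIP (95% interval 0.0157 to 0.0167). RPPH1 stood between them. Its ratio to 7SL was 1.03 and 0.0538, a 19.2-fold difference (18.5 to 19.9), and that of 7SK to RPPH1 was 4.91 and 1.53, a 3.22-fold difference (3.09 to 3.36). Y RNAs were also higher relative to 7SL in the MT1-MMP RIP, by 11.8-fold (7.53 to 19.1), and lower relative to 7SK, with 0.191 of the IgG ratio (0.122 to 0.308). In all, 10 such ratios were compared. The 10 RNAs together held 0.362% of all MT1-MMP counts and 0.666% of all IgG counts, and 0.403% and 8.99% outside the ribosomal block.

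7SL was the member whose counts kept closest to those of ribosomal RNA. Scaled to 1000000 counts of the ribosomal block there were 4981 counts of 7SL in the MT1-MMP RIP and 6331 in the IgG RIP, a ratio of 0.787 (95% interval 0.773 to 0.800). For RN7SL3 alone the ratio was 1.24 (1.16 to 1.32). For 7SK the values were 25267 and 519, a 48.7-fold higher ratio to ribosomal RNA in the MT1-MMP RIP (47.4 to 49.9). The corresponding figure was 15.1 for RPPH1 (14.6 to 15.6), 9.72 for RNY1 (5.54 to 17.8) and 8.56 for RNY3 (3.92 to 20.2).

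Against the whole table, all 7 tested members were called higher in the IgG RIP by TMM, where 12.8% of the 25933 tested rows were, and 0 were called higher in the MT1-MMP RIP, where 5.90% of tested rows were. Of these 7, the 3 7SL loci share sequence and possibly reads. Even with 0 IgG counts, a call as higher in the MT1-MMP RIP by TMM needed 341 MT1-MMP counts. RNY1 and RNY3 could therefore not be called so, nor could any gene below with fewer MT1-MMP counts. The median log2 ratio of the 7 was -4.36, against 0.17 over all tested rows. By CPM the split changed: the 3 7SL loci were called higher in the IgG RIP (0.902% of tested rows), RN7SK in the MT1-MMP RIP (85.8% of tested rows), and RPPH1, RNY1 and RNY3 in neither. The CPM median was -0.12, against 4.41 over all tested rows. Thus only 7SL was higher in the IgG RIP on both scales, and a call for 7SK in the MT1-MMP RIP by CPM is one it shares with most of the table. The other 3 members (RMRP, VTRNA1-1 and VTRNA1-3) had too few counts to be tested. Of all tested rows, 0.120% had a lower TMM ratio than RN7SL1, 0.108% than RN7SL2, 5.68% than RPPH1 and 15.7% than RN7SK.

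**Figure D3:**
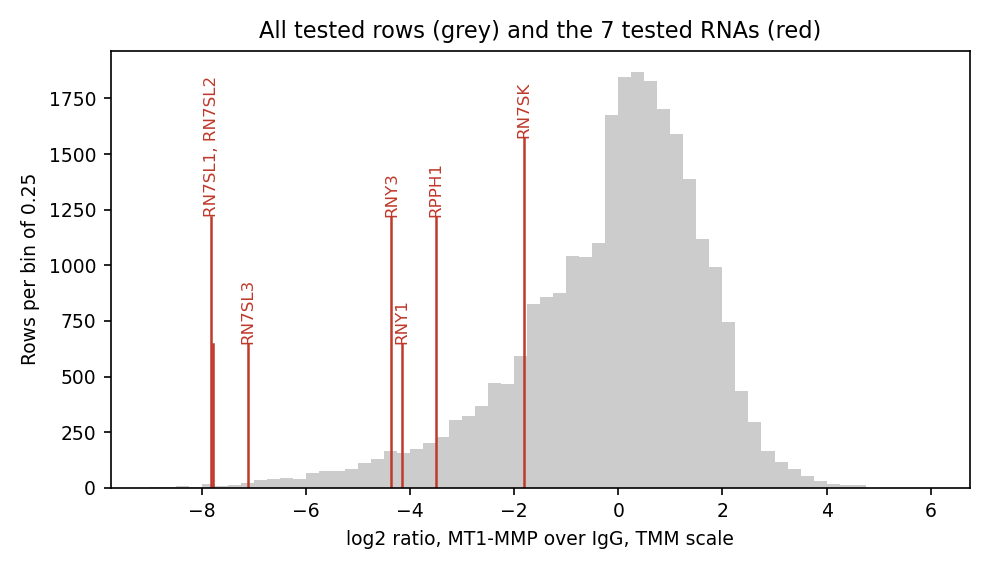
Number of tested rows (grey bars) by log2 ratio of MT1-MMP to IgG on the TMM scale, in bins of 0.25, with the 7 tested members as red lines. All 7 lines lie left of the bulk, from -7.82 for RN7SL2 to -1.81 for RN7SK; by CPM each value is 4.24 higher, which puts RN7SK at 2.43 and RPPH1 at 0.74.

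The genome holds many copies of these genes, most of them pseudogenes that are not transcribed as the parent is, and they divided by their counts. Of 293 rows named as 7SK pseudogenes (RN7SKP and a number), 5 had 1000 or more summed counts, a limit set after the values were seen. RN7SKP71 had 17024 MT1-MMP and 1095 IgG counts, RN7SKP80 13934 and 1001, and RN7SKP203 10602 and 626. The other 2 were RN7SKP255 (3992 and 274) and RN7SKP180 (1670 and 118). Their raw ratios ran from 13.9 to 16.9 MT1-MMP counts per IgG count, beside 13.1 for RN7SK (95% interval 12.7 to 13.4), and their CPM log2 ratios from 2.52 to 2.80. The intervals of RN7SKP71 (14.6 to 16.5) and RN7SKP203 (15.6 to 18.4) lay above that of RN7SK. Those of RN7SKP80, RN7SKP255 and RN7SKP180 overlapped it. The other 288 rows summed to 1208 and 26 counts, a ratio of 46.5 (95% interval 31.6 to 71.4) that includes the 45.9 of the typical row. Among the 677 rows of 7SL pseudogenes, RN7SL4P alone reached 1000 counts, with 2290 and 8740, a ratio of 0.262 beside 0.208 for RN7SL1. The next most counted, RN7SL648P (155 and 0) and RN7SL285P (129 and 0), had no IgG counts. The 676 below 1000 summed to 4016 and 147, a ratio of 27.3 (23.2 to 32.4), on the other side of CPM equality from RN7SL1.

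Copies of the remaining families had few counts. The 53 Y RNA pseudogene rows summed to 207 and 18 counts, 11.5 to 1 (7.10 to 19.8), against 2.50 to 1 for RNY1 and RNY3 together. RNY1P13 (20 and 6) and RNY3P1 (14 and 5) were near the ratio of their parents, and RNY1P6 had 15 and 0. A further 756 rows named only Y_RNA summed to 22.5 to 1. For comparison, the most counted U6 copies were RNU6-759P (56 and 0), RNU6-1005P (53 and 1) and RNU6-196P (52 and 1), and the most counted 5S copies RNA5SP312 (87 and 1), RNA5SP315 (85 and 1) and RNA5SP392 (84 and 1). The copies RMRPP5, RPPH1-2P and RPPH1-3P are listed at 0 in both libraries. The sources used here do not say how reads that fit several loci were counted, so counts of the high copies and of their parents may be of the same molecules.

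**Figure D4:**
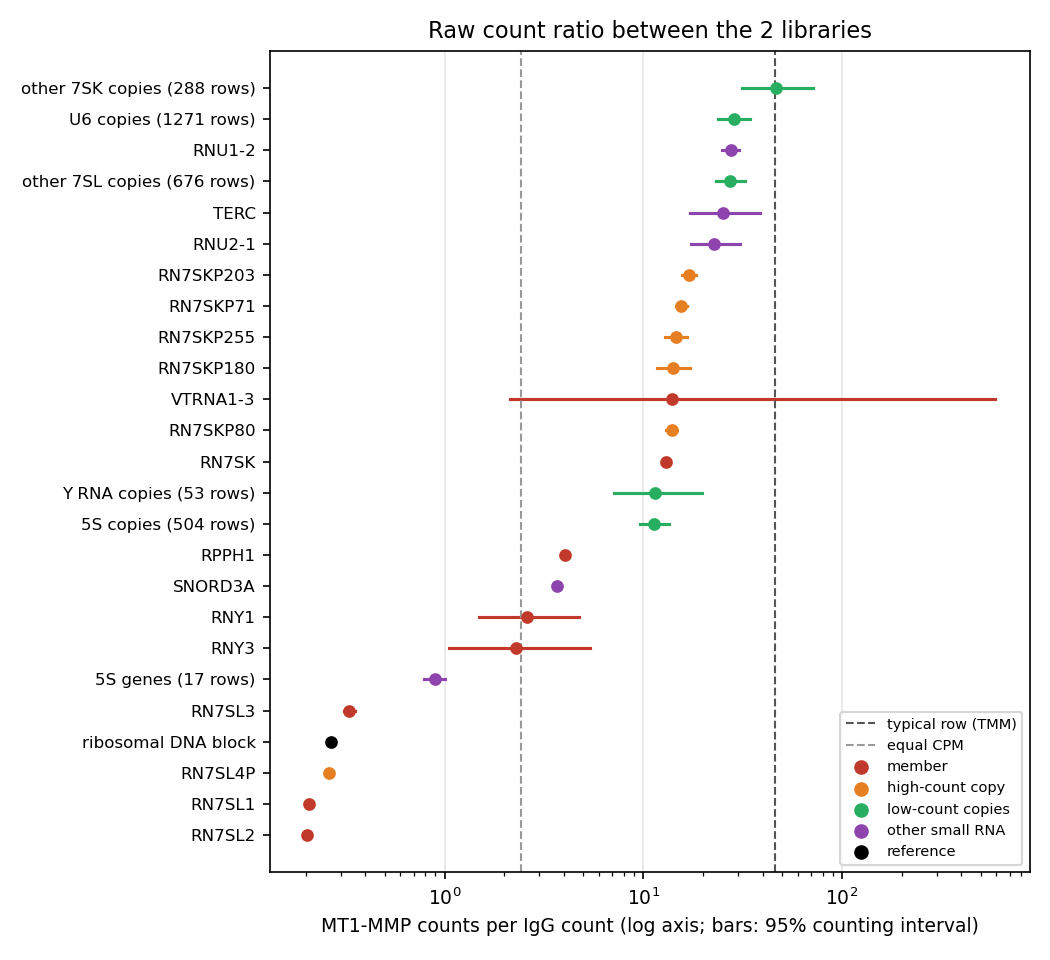
MT1-MMP counts per IgG count, on a log axis, for members (red), copies with 1000 or more counts (orange), summed copies with fewer counts (green), other small RNAs (purple) and the ribosomal DNA block (black), with 95% counting intervals. RN7SL1, RN7SL2, RN7SL3 and RN7SL4P lie around the block at 0.269. RN7SK lies at 13.1 and its 5 high-count copies at 13.9 to 16.9, and the low-count copies of 7SL and 7SK lie at 27.3 and 46.5. The dashed lines mark equal CPM (2.43) and the typical row by TMM (45.9).

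Other structured RNAs filled the range between 7SL and the typical row. The 17 rows of 5S ribosomal RNA, a polymerase III product that is part of the large ribosomal subunit, had 8 to 40 MT1-MMP counts and 1 to 42 IgG counts, 0.892 to 1 in sum. RNA5S14 had 36 and 38 counts and RNA5S5 40 and 33. Of 29 other polymerase III transcripts, 17 were tested, and all 17 were called higher in the IgG RIP by TMM (12.8% of all rows). By CPM 4 were (0.902% of all rows), and the medians were -5.81 by TMM and -1.57 by CPM. Of these 17, 16 were 5S rows, which are near copies, and the other was BCYRN1, a neuronal dendritic RNA also found in tumours (21 and 4). The U6 spliceosomal genes RNU6-1, RNU6-2, RNU6-7, RNU6-8 and RNU6-9 had 2 to 9 MT1-MMP counts and at most 1 IgG count. Among 14 tested structured RNAs made by polymerase II, 2 were called higher in the IgG RIP by TMM and 0 in the MT1-MMP RIP (median -0.95), while by CPM 12 were called higher in the MT1-MMP RIP (median 3.29), beside 12.8% and 85.8% of all rows. SNORD3A, the nucleolar U3 RNA of ribosomal RNA processing, had 10964 and 2982 counts, 3.68 to 1, near RPPH1. RNU1-2, a copy of the U1 spliceosomal RNA, had 12288 and 446, 27.6 to 1. RNU2-1 (U2) stood at 22.9 to 1 and TERC, the telomerase RNA, at 25.4 to 1. RN7SK, also nuclear, lay below these 3 at 13.1 to 1, their intervals not reaching its own. This did not hold for all of the list. RNU4-2, a U4 RNA, stood at 9.56 to 1, and RNU4-1 (17.8 to 1) and RNU5E-1 (16.4 to 1) had intervals that reached that of RN7SK. Relative to the ribosomal block, the ratio between libraries was 103 for RNU1-2, 13.7 for SNORD3A and 3.32 for the 5S rows, against 48.7 for RN7SK.

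The mRNAs of the proteins in these particles and of the polymerase III machinery were mostly nearer to the typical row than the RNAs were: by TMM, 15 of the 54 tested genes were called higher in the IgG RIP and 0 in the MT1-MMP RIP, with a median of -0.85, and by CPM 0 and 44, with a median of 3.39. Over all tested rows the shares called were 12.8% and 5.90% by TMM and 0.902% and 85.8% by CPM, so the CPM count is near the background. For the signal recognition particle and its receptor, 5 of 8 genes were called higher in the IgG RIP by TMM and 0 in the MT1-MMP RIP (median log2 ratio -1.73), and by CPM 0 and 6 (2.51), beside 12.8% of all rows in the IgG RIP by TMM and 85.8% in the MT1-MMP RIP by CPM. SRP19, which helps assemble the particle, had 1596 and 46 counts (-0.42 by TMM, 3.82 by CPM), and SRP54, the GTPase that binds signal peptides, 917 and 20 (-0.04 and 4.20). The lowest ratios were those of SRPRA, the receptor's alpha subunit (85 and 44 counts, -4.58 by TMM), and SRP14, of the domain that slows translation (39 and 17, -4.35). For comparison 7SL stood at -7.76 by TMM.

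Of the 7 genes of the 7SK particle and P-TEFb, 2 were called higher in the IgG RIP by TMM and 0 in the MT1-MMP RIP (median -0.83), and by CPM 0 and 6 (3.41), the latter near the 85.8% of all rows. CCNT2, a cyclin of P-TEFb, had 1705 and 16 counts (1.17 by TMM, 5.41 by CPM), and CCNT1 541 and 9 (0.31 and 4.55). HEXIM1, which inhibits the kinase when bound to 7SK, was one of those called, with 424 and 51 (-2.48 and 1.76), and MEPCE, which caps 7SK, was the other (44 and 14 counts, -3.90 and 0.34). Of 11 RNase P and MRP protein genes, 7 were tested, and 2 were called higher in the IgG RIP by TMM, POP5 and POP4, and 0 in the MT1-MMP RIP (median -0.38), against 0 and 4 by CPM (3.86), beside 12.8% and 85.8% of all rows. RPP38 had 1316 and 23 counts (0.29 by TMM, 4.53 by CPM) and RPP30 686 and 19 (-0.38 and 3.86).

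Of the Ro, La and vault proteins, 2 of 5 were called higher in the IgG RIP by TMM (median -1.14) and 4 in the MT1-MMP RIP by CPM (3.10), beside 12.8% and 85.8% of all rows. RO60, the Y RNA binding protein, had 1837 and 48 counts (-0.28 and 3.96), and the vault enzyme PARP4 2863 and 114 (-0.88 and 3.36). MVP, the major vault protein (703 and 56, -1.88 by TMM), and SSB, the La protein that binds the ends of polymerase III transcripts (134 and 31, -3.43 by TMM), were those called by TMM. Of 27 tested genes of the polymerase III machinery, 4 were called higher in the IgG RIP by TMM and 0 in the MT1-MMP RIP (median -0.56), and by CPM 0 and 24 (3.68), beside 12.8% and 85.8% of all rows. BRF1, an initiation factor of the gene-internal promoters, had 2494 and 48 counts (0.16 by TMM, 4.40 by CPM). SNAPC1, of the complex that binds upstream promoters such as those of 7SK and RPPH1, had 2495 and 35 (0.61 and 4.85). MAF1, the repressor of polymerase III, had the lowest ratio of the tested genes (28 and 37, -5.92 and -1.68).

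The rows most like 7SL in their ratio were 3 rows of the ribosomal block, a nuclear copy of a mitochondrial gene, and a row that repeats the RN7SL2 counts. Among 5663 uniquely named rows outside the 10 with 1000 or more summed counts, the 5 nearest in TMM log2 ratio to the summed 7SL loci were 3 rows of the ribosomal block, CH507-513H4.6 (-7.81), CH507-513H4.4 (-7.82) and CH507-513H4.5 (-7.84), the row RP11-596C23.6 over RN7SL2 (-7.81), and MTCO1P12 (-7.69), a nuclear copy of a mitochondrial gene with 283 and 1271 counts. By CPM these 5 lay between -3.60 and -3.45. The likeness rests on 1 ratio of 2 libraries. That of RP11-596C23.6 was fixed in advance: it had 7363 and 36092 counts where RN7SL2 had 7333 and 36092.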

How the data were processed

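The authors deposited whole-number read counts per row, not normalized, in 1 column per library, each tied to its sample by the column name in the labels. Tools named for the upstream steps are HISAT2, cutadapt and SAMtools, with build hg38, per the submitters' processing notes. The sources used here do not give versions, the counting tool, the annotation, the use of strand or the treatment of reads that fit several loci, so overlapping rows and near copies may share reads. Of 60649 rows, 959 repeated the name and counts of an earlier row and were left out of comparisons, not of totals. Positions, lengths and sequences are RefSeq's (GRCh38.p14). TMM factors came from edgeR 4.0.16 over rows with 20 or more summed counts. Log2 ratios used 0.5 added counts. Intervals of ratios and shares are exact (Clopper-Pearson, 95%), of levels exact Poisson, and of ratios between members exact conditional or, with 1000 or more counts in each cell, from the log odds ratio. The calculations were tested on simulated data that lacked the difference in ribosomal share between the 2 libraries, so that test does not bear on the choice of scale. Genes named were all 10 members, overlapping rows, the 3 most counted rows of each copy family, the 2 most counted genes of each list, and the 5 rows most like 7SL; others were named after their values were seen. Members and lists were chosen with earlier results of these data known. Alternatives were other scalings (DESeq2 1.42.0 size factors among them), count minimums, added counts, folds and member sets.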

Additional observations from a re-analysis of the deposited data

How the results depend on the processing

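No paired analysis was possible because each group holds 1 library. By DESeq2 size factors, upper quartile or totals outside the ribosomal block, and with other added counts, each tested member stayed on the IgG side. Log2 ratios ran from -1.86 to -1.17 for RN7SK, -3.55 to -2.86 for RPPH1 and -7.84 to -7.15 for RN7SL1. Other count minimums only drop rows and leave the ratio of each kept member as it was, so they do not test it. By total counts (CPM), where every row lies 4.24 higher than by TMM, the sign of 3 members turned, RN7SK (2.43), RPPH1 (0.74) and RNY1 (0.078). Which scale gives the true direction was not tested. The members called higher in the IgG RIP became 3 by CPM and 4 with the 7SL members left out (added after seeing the data), and those higher in the MT1-MMP RIP 1 by CPM. Their median became -0.12 by CPM and -7.11 with a minimum of 100 counts, which drops both Y RNAs. For the protein partners, CPM gave 0 rows higher in the IgG RIP instead of 15, 44 higher in the MT1-MMP RIP instead of 0, and a median of 3.39 instead of -0.85. For the other small RNAs it gave 4 instead of 19, 12 instead of 0 and a median of -0.78 instead of -5.01, and a minimum of 1 count gave a median of -3.20. Over all tested rows, calls in the IgG and MT1-MMP RIP were 12.8% and 5.90% by TMM and 0.902% and 85.8% by CPM. The partner count by CPM is thus near the background. Outside the ribosomal block the members' shares of counts were 0.403% and 8.99%. Without 7SL in the denominator 7SK held 83.0% of MT1-MMP and 60.2% of IgG member counts, and RPPH1 16.9% and 39.5%, so the order of RPPH1's shares between libraries turned. The low counts of the Y and vault RNAs give wide intervals. With 0 IgG counts, a call as higher in the MT1-MMP RIP by TMM needed 341 counts.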
